A study of Mus musculus with 6 samples.

Results

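The genes Bst1, Cd38, Nampt, Nt5e, Entpd1 and Enpp1 were followed across 6 mouse bone marrows. They take part in NAD turnover or act on nucleotides outside the cell. A gene was measured where a probe set of the array carried its symbol and no other, with the brightest probe set taken by its mean over the 6 arrays. This gave a value for 4 of the 6 members (Bst1, Nampt, Nt5e and Entpd1, each by 1 probe set) among 19938 genes in all, while Cd38 and Enpp1 were not analysed here. The set was put together after Bst1 had stood among the genes with the largest lower values in 1 group, so the values of Bst1 are given as a description without a test.

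Each array held RNA of all bone marrow cells from 1 diseased mouse, on an Affymetrix mouse whole-transcript array. The recipients were CD45.1+ mice that had been lethally irradiated. Their donor cells were CD45.2+ LSK cells, a fraction rich in blood stem and progenitor cells, and carried introduced Meis1 in both groups. In 3 mice the second introduced gene was the wild-type homeobox gene HoxA9 with GFP (HoxA9wt/Meis1), and in 3 mice it was the altered form labelled HoxA9AA, also with GFP (HoxA9AA/Meis1). The mice are labelled as biological replicates. The sources used here do not state mouse strain, age, the promoter of the vectors, or whether donor cells were sorted from recipient cells before RNA extraction, and normal marrow was not analysed here. Values are log2, so that 1 unit means a 2-fold change, and differences are HoxA9AA/Meis1 minus HoxA9wt/Meis1.

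Bst1 (CD157) and Cd38 are related surface enzymes that cleave NAD and make ADP-ribose and the calcium messenger cyclic ADP-ribose. Bst1 is attached to the membrane by a GPI anchor and is known from myeloid cells, early B cells and marrow stroma. Nampt makes the NAD precursor nicotinamide mononucleotide from nicotinamide, the step that limits NAD recycling. Entpd1 (CD39) removes phosphates from extracellular ATP and ADP, Nt5e (CD73) turns the resulting AMP into adenosine, and Enpp1 splits ATP into AMP and pyrophosphate. ATP is a danger signal to leukocytes, and adenosine dampens their responses.

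Arrays were compared over all genes once. The probe set median ranged from 6.73 to 6.85, and the 95th percentile of 1027 olfactory receptor genes, used here as the upper edge of background, lay between 6.52 and 6.72. No gene had an adjusted p under 0.05 with all 6 arrays (limma; 0 of 19938 genes, 0%), 1344 genes (6.74%) had an unadjusted p under 0.05, and without HoxA9AA replicate 2 the test called 48 genes. The groups did not overlap for 11.4% of genes. The median difference over all genes was 0.01. Checked against markers of marrow cells, the mean of 6 primary granule genes ranged from 10.03 to 11.75 over the arrays. Of 11 measured B lineage genes, 6 (Cd79a, Ebf1, Ms4a1, Blnk, Rag1 and Rag2) lay under the background edge on every array, while Cd79b measured 7.46 to 9.37.

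Bst1 was far lower in HoxA9AA replicates 1 and 3 than in the other 4 mice. It measured 9.63, 9.96 and 9.74 in HoxA9wt/Meis1 replicates 1, 2 and 3, and 6.13, 9.45 and 5.83 in HoxA9AA/Meis1 replicates 1, 2 and 3. The HoxA9wt mice lay within 0.33 of each other, whereas the HoxA9AA mice spread over 3.62. HoxA9AA replicates 1 and 3 lay 3.65 and 3.95 below the HoxA9wt mean, or 12.5-fold and 15.4-fold lower, and both values were under the background edge of their own arrays. HoxA9AA replicate 2 lay 0.33 below it, and its 9.45 was 0.18 under the lowest HoxA9wt value, so a narrow gap kept the groups apart. The group means were 9.78 ± 0.17 (SD, n = 3) and 7.14 ± 2.01, a difference of −2.64 ± 0.92 (SE). Leaving out HoxA9AA replicate 2 gave −3.80, and leaving out replicate 3 gave −1.99. In whole marrow, fewer cells that express a gene and less RNA per cell cannot be told apart.

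**Figure D1:**
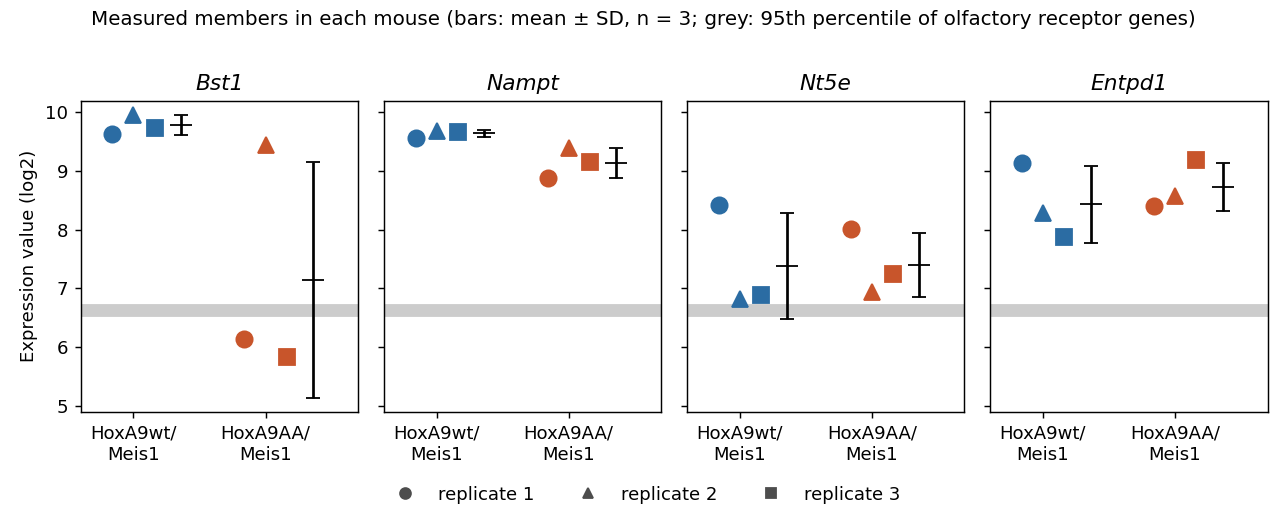
Expression values (log2, vertical axis) of the 4 measured members in each mouse; circles, triangles and squares are replicates 1, 2 and 3, black bars the group mean ± SD (n = 3), and the grey band the 95th percentile of olfactory receptor genes (6.52 to 6.72 over the 6 arrays). Bst1 lies under the band in HoxA9AA replicates 1 and 3 (6.13 and 5.83), Nampt is lower in all 3 HoxA9AA mice by a small amount, and Nt5e and Entpd1 overlap between the groups.

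Nampt was lower in every HoxA9AA mouse, by much less than Bst1, and did not pass the test. It measured 9.57, 9.68 and 9.66 in the HoxA9wt mice and 8.88, 9.39 and 9.16 in HoxA9AA replicates 1, 2 and 3. The HoxA9wt values lay within 0.11 of each other, and the highest HoxA9AA value was 0.18 under the lowest of them. The means were 9.64 ± 0.06 (SD, n = 3) and 9.14 ± 0.26, a difference of −0.49 ± 0.14 (SE), or 1.41-fold lower (limma, adjusted p = 0.731 over all genes). The adjusted p ranged from 0.114 to 0.998 over the alternatives tried. Bst1 and Nampt were the 2 measured members whose groups did not overlap, a count fixed in part by the choice of Bst1, beside 4.80% of all genes apart in this direction. The unadjusted p of Nampt was 0.0109 (limma), and 2.59% of all genes had an unadjusted p under 0.05 towards lower values. HoxA9AA replicate 2 was the HoxA9AA mouse nearest to the HoxA9wt mean for both genes. For Nampt the lowest mouse was replicate 1; for Bst1, replicates 1 and 3 both lay under the background edge and have no order.

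Nt5e had nearly equal group means and a wide spread inside both groups. It measured 8.42, 6.82 and 6.89 in the HoxA9wt mice and 8.01, 6.93 and 7.25 in the HoxA9AA mice. HoxA9wt replicate 1 and HoxA9AA replicate 1 were thus high, and the other 4 mice lay not far above the background edge. The means were 7.38 ± 0.90 (SD, n = 3) and 7.40 ± 0.55, a difference of 0.02 ± 0.49 (SE; limma, adjusted p = 0.994) with a 95% interval from −1.15 to 1.19. The interval leaves room for about a 2-fold difference in either direction. The sign turned without HoxA9wt replicate 2 (−0.26), HoxA9wt replicate 3 (−0.22) or HoxA9AA replicate 1 (−0.29).

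Entpd1, the enzyme that acts before Nt5e on the same path, also overlapped between the groups. It measured 9.14, 8.28 and 7.87 in the HoxA9wt mice and 8.40, 8.58 and 9.18 in the HoxA9AA mice. The highest mice were HoxA9AA replicate 3 and HoxA9wt replicate 1, which differed by little, and the lowest was HoxA9wt replicate 3. The means were 8.43 ± 0.65 (SD, n = 3) and 8.72 ± 0.41, a difference of 0.29 ± 0.35 (SE; limma, adjusted p = 0.920) with a 95% interval from −0.56 to 1.14. Without HoxA9wt replicate 3 the difference was 0.01, without HoxA9wt replicate 1 it was 0.65, and without HoxA9AA replicates 1 or 3 it was 0.45 and 0.06. HoxA9wt replicate 1 was thus the highest mouse of its group for both Entpd1 and Nt5e, while the high HoxA9AA mouse was replicate 3 for Entpd1 and replicate 1 for Nt5e.

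The promoters of the 3 measured members found in the promoter set used here (GRCm38.p6) are printed to show how differently the starts of these genes are built. Bst1 has no entry in that set. Each run is the 250 bases before a start on the plus strand, 5′ to 3′, with capitals marking matches on either strand to 5 motifs: TGATTTAT (a composite of HOX and MEIS factors), GAGGAA (the core of ETS factors such as PU.1), GGGCGG (the GC box), CACGTG (the E-box) and TGACGTCA (the CRE). Matches of the GC box can overlap each other.
Nampt, chr12:32820085-32820334: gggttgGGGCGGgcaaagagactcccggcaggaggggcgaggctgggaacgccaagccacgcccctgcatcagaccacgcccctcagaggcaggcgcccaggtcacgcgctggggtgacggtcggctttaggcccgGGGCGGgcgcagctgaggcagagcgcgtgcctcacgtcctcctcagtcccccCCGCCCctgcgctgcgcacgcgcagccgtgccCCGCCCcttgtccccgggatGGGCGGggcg
Nt5e, chr9:88327359-88327608: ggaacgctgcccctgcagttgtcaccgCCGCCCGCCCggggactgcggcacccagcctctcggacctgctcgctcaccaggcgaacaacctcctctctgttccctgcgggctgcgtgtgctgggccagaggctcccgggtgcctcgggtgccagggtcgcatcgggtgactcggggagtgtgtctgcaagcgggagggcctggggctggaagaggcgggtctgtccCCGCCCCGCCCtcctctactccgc
Entpd1, first start, chr19:40612116-40612365: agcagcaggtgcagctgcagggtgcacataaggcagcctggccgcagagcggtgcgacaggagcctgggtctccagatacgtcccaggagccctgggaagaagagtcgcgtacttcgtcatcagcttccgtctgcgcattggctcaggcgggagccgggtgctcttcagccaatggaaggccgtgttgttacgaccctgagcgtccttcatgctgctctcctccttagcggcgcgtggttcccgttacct
Entpd1, second start, chr19:40659520-40659769: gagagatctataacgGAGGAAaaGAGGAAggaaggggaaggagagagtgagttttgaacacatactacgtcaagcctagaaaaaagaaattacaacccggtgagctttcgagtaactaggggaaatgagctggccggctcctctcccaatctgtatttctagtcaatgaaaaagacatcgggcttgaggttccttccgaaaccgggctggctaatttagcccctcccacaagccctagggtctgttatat
The Nampt window had 75.6% G and C, 27 CpG and 5 GC boxes, and the Nt5e window 72% G and C, 21 CpG and 4 GC boxes. Over all 32851 promoters of the set the median window had 52.4% G and C and 6 CpG, and 32.7% held a GC box. The first Entpd1 window (62.4% G and C, 18 CpG) held none of the 5 motifs. The second (47.2%, 8 CpG) held 2 GAGGAA cores, a motif present in 23.3% of all promoters. The composite TGATTTAT, present in 0.837% of all promoters, the E-box (6.02%) and the CRE (1.55%) were not among the letters of these 4 windows. The sources used here do not say which Entpd1 start the probe set reports on.

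The genes with values most like those of Bst1 were Vcan, Clec4a3, Abca9, Fn1 and Ms4a4a. Likeness was the mean absolute distance over the 6 arrays after each gene's HoxA9wt mean was subtracted; the genes were chosen by these values, which are given without a test. Vcan, the proteoglycan versican of monocytes and matrix, lay 0.13 from Bst1 on average, against a median of 1.39 over all genes. It measured 11.77, 12.10 and 11.84 in the HoxA9wt mice and 8.09, 11.65 and 8.47 in the HoxA9AA mice. Like Bst1 it was low in HoxA9AA replicates 1 and 3 and high in the other 4 mice. Clec4a3, a C-type lectin receptor of myeloid cells, lay at a distance of 0.33 and measured 6.69, 10.97 and 7.20 in HoxA9AA replicates 1, 2 and 3 against a HoxA9wt mean of 10.95. Abca9 (an ABC transporter), Fn1 (fibronectin) and Ms4a4a (a membrane protein of myeloid cells) each lay at 0.34. Fn1 was lowest in HoxA9AA replicate 3 (7.54) and less so in replicate 1 (9.58), against a HoxA9wt mean of 12.72. All 5 genes were low in HoxA9AA replicates 1 and 3 and near the HoxA9wt values in replicate 2.

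Many monocyte and macrophage markers were low in the same 2 mice as Bst1, and some were not. No marker passed the test (limma, 0 of 16 with an adjusted p under 0.05). An unadjusted p under 0.05 (limma) was found for 5, all lower, beside 2.59% of all genes in this direction. Of 16 measured markers, 15 had a lower mean in HoxA9AA/Meis1, beside 47.2% of all genes, and none lay under the background edge on all arrays. Their mean level was 10.27, 9.87 and 10.14 in the HoxA9wt mice and 8.53, 10.07 and 8.75 in HoxA9AA replicates 1, 2 and 3, so the groups overlapped. F13a1 in HoxA9AA replicate 3 (11.95), and Irf8 (8.65) and Fcgr1 (6.52) in the same mouse, lay inside their HoxA9wt ranges. The median difference of the list was −0.68, beside 0.01 over all genes. Late neutrophil genes, taken as a list mean, ordered the mice in another way. The mean of 15 genes was 9.40, 9.86 and 7.57 in the HoxA9wt mice and 9.93, 10.07 and 8.62 in the HoxA9AA mice. HoxA9wt replicate 3, with a Bst1 value of 9.74, was thus the lowest. Among the 15, the mean in HoxA9AA/Meis1 was higher for 12 and lower for 3, and none passed the test (limma). Unadjusted p was under 0.05 (limma) for 3 with a higher mean and 1 with a lower mean, Mmp8. Like Bst1, Mmp8 was low in HoxA9AA replicates 1 and 3. It measured 8.07, 11.44 and 6.07 in HoxA9AA replicates 1, 2 and 3, against a HoxA9wt mean of 12.06. The 11 stroma and endothelium genes had means of at most 7.10 in the HoxA9wt mice and 7.65, 7.23 and 7.35 in the HoxA9AA mice, highest in HoxA9AA replicate 1. Vcam1, Pecam1 and Pdgfrb measured 11.35, 10.88 and 8.71 in that mouse, against HoxA9wt means of 8.63, 9.37 and 6.76. The other genes of the list, collagens, Cxcl12, Cdh5 and Kdr among them, differed by only −0.04 to 0.22 between the groups. The 11 B lineage genes had means of 6.08, 6.05 and 6.14 in the HoxA9wt mice and 6.24, 6.28 and 6.33 in the HoxA9AA mice. Of these genes, 10 had a higher mean in HoxA9AA/Meis1, but the 6 under the background edge have no direction. Vpreb3 measured 6.67, 6.78 and 6.74 in the HoxA9wt mice and 7.60, 7.16 and 7.20 in the HoxA9AA mice (limma, adjusted p = 0.731). Cd79b was highest in HoxA9AA replicate 3 (9.37), and its groups overlapped. Clec4a3 is on the monocyte and macrophage list too. The 7 measured erythroid genes all had a lower mean, with list means of 6.27, 7.58 and 6.52 in the HoxA9wt mice and 6.23, 6.22 and 6.08 in the HoxA9AA mice. HoxA9wt replicate 2 thus stood highest, and Klf1 and Epb42 lay under the background edge on every array. The 7 measured stem and progenitor genes had means of 7.68, 7.07 and 7.57 in the HoxA9wt mice and 7.75, 7.42 and 8.31 in the HoxA9AA mice. HoxA9AA replicate 3 was the highest, and HoxA9AA replicate 1 was close to HoxA9wt replicate 1. In HoxA9AA replicate 1 the members differed: Kit was 9.96 and Flt3 6.92, against HoxA9wt means of 8.18 and 10.26. Mecom and Procr lay under the background edge on every array. Primary granule genes had means of 10.33, 10.66 and 10.03 and then 11.75, 10.37 and 10.56, highest in HoxA9AA replicate 1. Over the 6 arrays the list means ranged from 6.12 to 6.54 for plasma cell genes, 6.07 to 6.31 for T and NK cell genes, and 6.23 to 6.52 for dendritic cell genes. The part of any of these lists in the Bst1 values was not tested.

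**Figure D2:**
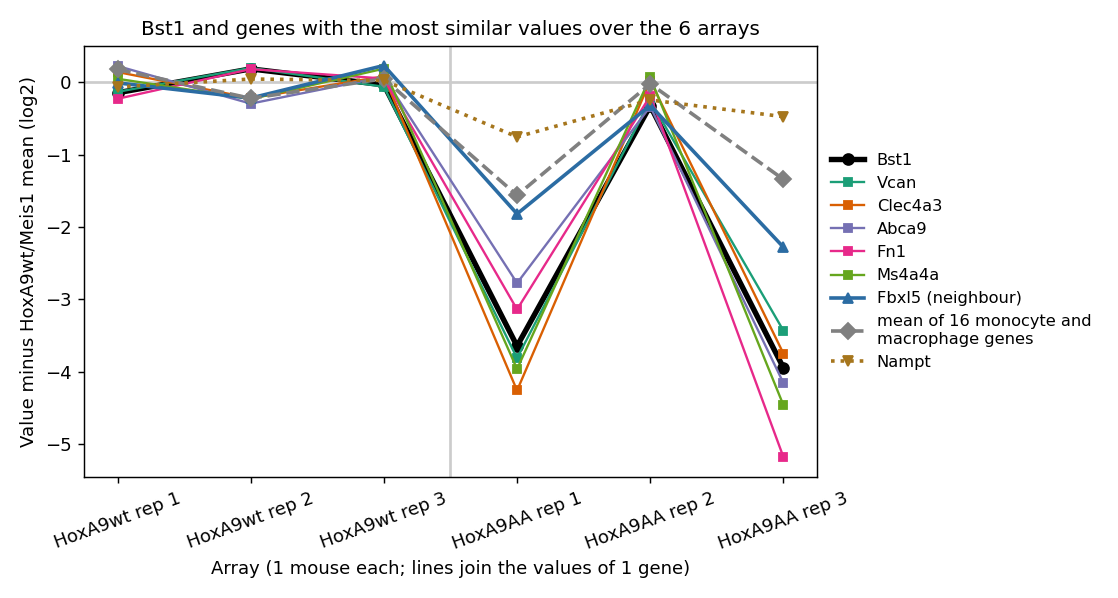
Vertical axis, value minus the HoxA9wt/Meis1 mean (log2); horizontal axis, the 6 arrays (1 mouse each), for Bst1, the 5 genes most like it, its chromosomal neighbour Fbxl5, Nampt, and the mean of 16 monocyte and macrophage genes; lines join the values of 1 gene. All lie near 0 in the HoxA9wt mice and in HoxA9AA replicate 2, and below it in HoxA9AA replicates 1 and 3, where Bst1 stands 3.65 and 3.95 under its HoxA9wt mean.

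Bst1 lies on chromosome 5 beside Cd38, and the gene on its other side, Fbxl5, was low in the same mice. Fbxl5, an iron-sensing subunit of a ubiquitin ligase, measured 10.73, 10.52 and 10.97 in the HoxA9wt mice and 8.92, 10.42 and 8.46 in the HoxA9AA mice. HoxA9AA replicates 1 and 3 were thus low, and replicate 2 lay just under the HoxA9wt mice. The difference was −1.47 ± 0.48 (SE; limma, adjusted p = 0.731), which did not pass. Of the 10 nearest genes with a value, 5 on each side of the Bst1 and Cd38 pair, Fbxl5 was the only one whose groups did not overlap. Over all genes the groups did not overlap for 11.4% in either direction and for 4.80% towards lower values. The other 9 differed by −0.20 to 0.27. Tapt1 measured 9.36, 9.54 and 9.35 in the HoxA9wt mice and 9.67, 9.35 and 9.58 in the HoxA9AA mice, and Cpeb2 differed by −0.07. Prom1, which encodes the stem cell surface protein prominin, lay under the background edge on every array, as did C1qtnf7, Fgfbp1 and Ldb2. Beyond Fbxl5, the measured genes on either side had no mouse more than 1 log2 unit from its HoxA9wt mean.

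**Figure D3:**
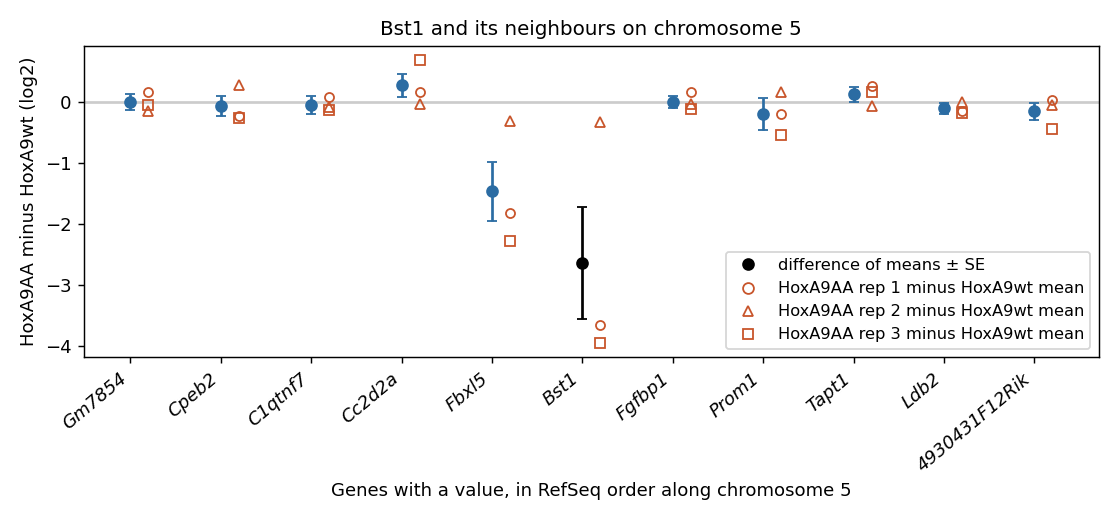
Differences (log2, vertical axis) of Bst1 and the 5 genes with a value on each side of the Bst1 and Cd38 pair, in gene order along chromosome 5 (horizontal axis, not to distance); filled points are the difference of group means ± SE, open symbols each HoxA9AA mouse minus the HoxA9wt mean. Bst1 (−2.64) and Fbxl5 (−1.47) stand apart from the other 9 genes, which lie between −0.20 and 0.27.

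Nt5e and Entpd1 resembled other genes. Nearest to Nt5e were the TGF-beta co-receptor gene Tgfbr3 (distance 0.15, where the median gene lay at 0.57), Serpinb2, the lectin gene Cd209a, the basophil protease gene Mcpt8 and the pyrophosphate transporter gene Ank. Tgfbr3 measured 8.02, 6.79 and 6.76 in the HoxA9wt mice and 7.91, 6.72 and 6.71 in the HoxA9AA mice, high in the same 2 mice as Nt5e. Nearest to Entpd1 were Hmces (0.10, median gene 0.44), Hoxa9 (0.12), Adipor2, Hmox2 and Trim14. Hoxa9 transcripts, introduced or endogenous, measured 8.93, 8.27 and 7.89 in the HoxA9wt mice and 8.72, 8.49 and 9.07 in the HoxA9AA mice. As for Entpd1, the highest were HoxA9AA replicate 3 and HoxA9wt replicate 1, and the lowest was HoxA9wt replicate 3. Nampt spanned 0.80 over the 6 arrays, under the span of 1 set for this search.

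No other gene of these pathways passed the test, and the few with the smallest p had higher means. Of 74 measured genes on 6 lists, 0 had an adjusted p under 0.05 (limma, smallest 0.731), and 4 had an unadjusted p under 0.05, all with higher means in HoxA9AA/Meis1. The 4 are 5.41% of the 74, beside 6.74% of all genes in either direction and 4.15% towards higher values. The groups did not overlap for 6 genes, or 8.11%, all higher, beside 11.4% of all genes in either direction and 6.60% in that direction. The median difference of the 74 genes was 0.05. The count of 4 was 9 without HoxA9AA replicate 2 and 1 without HoxA9wt replicate 1 or 2.

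Of 20 other genes of NAD synthesis, 12 had a higher and 8 a lower mean, where 52.8% of all genes had a higher one. The smallest p was that of Nadsyn1, which makes NAD from nicotinic acid adenine dinucleotide. It measured 6.40, 6.38 and 6.49 in the HoxA9wt mice and 6.81, 6.54 and 6.85 in the HoxA9AA mice, a difference of 0.31 ± 0.11 (SE; limma, adjusted p = 0.731). These values lie close to the background edge. Slc25a51, the mitochondrial NAD carrier, differed by 0.28. The nicotinamide riboside kinase gene Nmrk1 lay under the background edge on every array, as did Nmrk2, Acmsd, Ido1, Ido2 and Tdo2. These 6 of the 20 are in the counts above but have no direction. Of 18 NAD users inside the cell, 11 had a higher mean. The 11 include Sarm1, which lay under the background edge on every array. The mitochondrial deacylase genes Sirt5 (0.22 ± 0.09, SE) and Sirt3 (0.46 ± 0.19) and the ADP-ribosyltransferase gene Parp10 (0.25 ± 0.13) had the smallest p (limma, adjusted p = 0.731, 0.731 and 0.763). Sirt3 had means of 7.40 ± 0.11 (SD, n = 3) and 7.86 ± 0.38. HoxA9AA replicate 2 (7.43) lay inside the HoxA9wt range of 7.28 to 7.47, and replicates 1 and 3 lay above it. The 4 measured genes of the surface ADP-ribosyltransferase family differed by −0.08 to −0.02, with Art3 and Art4 under the background edge on every array and Art5 at −0.07. Art2a and Art2b, of the same family, were not analysed here.

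None of the relatives of Entpd1 and Enpp1 passed the test. Of 14 measured nucleotide ectoenzymes and relatives, 9 had a higher mean, where 52.8% of all genes did, and Entpd2, Entpd8, Enpp3 and Enpp6 lay under the background edge on every array. Entpd5, which splits nucleoside diphosphates in the endoplasmic reticulum, measured 8.03, 8.43 and 7.78 in the HoxA9wt mice and 9.28, 8.45 and 8.61 in the HoxA9AA mice. HoxA9AA replicate 2 was barely above the highest HoxA9wt mouse, and the difference was 0.70 ± 0.26 (SE; limma, adjusted p = 0.731). Enpp4 measured 8.23, 7.79 and 7.79 in the HoxA9wt mice and 9.23, 7.92 and 9.45 in the HoxA9AA mice. Enpp5 measured 7.39, 6.76 and 6.60 and then 9.78, 6.84 and 8.65. Both members of the ENPP family were thus high in HoxA9AA replicates 1 and 3, the mice in which Bst1 was low, and overlapped between the groups through replicate 2 (limma, adjusted p = 0.731 and 0.734).

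Of 9 measured genes on the adenosine list, 5 had a lower and 4 a higher mean. The 4 include Slc28a3, which lay under the background edge on every array. The adenosine receptors Adora1, Adora2a, Adora2b and Adora3 were not analysed here. The nucleoside transporter genes Slc28a2, Slc29a3 and Slc29a1 differed by −0.78, 0.20 and 0.34 (limma, adjusted p = 0.741, 0.746 and 0.780). Slc28a2, which takes up purine nucleosides with sodium, had a mean of 8.48 ± 0.44 (SD, n = 3) in the HoxA9wt mice and measured 7.25, 7.36 and 8.50 in the HoxA9AA mice, low in replicates 1 and 2 rather than in 1 and 3. Downstream of Bst1 and Cd38, 8 of 9 calcium channels and binding proteins for their products had a higher mean, beside 52.8% of all genes. The 8 include Ryr2 and Ryr3, which with Ryr1 lay under the background edge on every array and so have no direction. Trpm2, the cation channel opened by ADP-ribose, measured 7.21, 7.15 and 7.29 in the HoxA9wt mice and 7.63, 7.68 and 7.34 in the HoxA9AA mice. Replicates 1 and 2 were the high ones, and the difference of 0.33 ± 0.12 (SE) did not pass (limma, adjusted p = 0.731). The lysosomal channel genes Tpcn1 and Tpcn2 differed by 0.21 and 0.13.

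**Figure D4:**
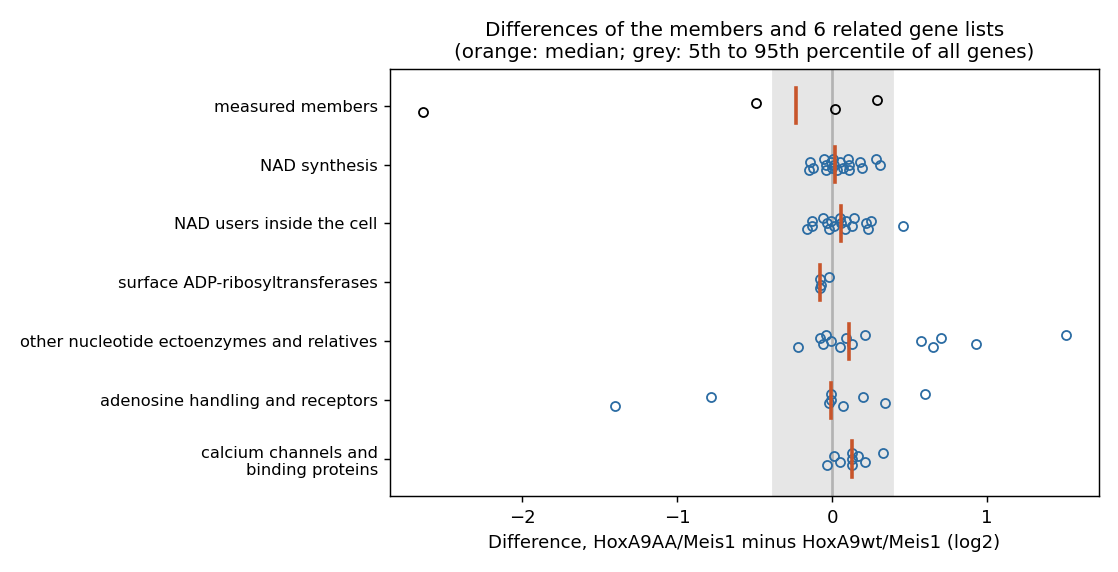
Differences (log2, horizontal axis; HoxA9AA/Meis1 minus HoxA9wt/Meis1) of the 4 measured members and of the measured genes of 6 related lists, each circle a gene, orange bars the median of each row, and the grey band the 5th to 95th percentile of all genes (−0.38 to 0.39). Bst1 (−2.64) lies far outside the band, Nampt (−0.49) just outside it, and the list medians lie between −0.08 and 0.13.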

How the data were processed

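Bone marrow RNA of 6 mice was hybridised to 6 arrays, 1 per mouse. The authors deposited log2 values made by RMA in oligo, per the submitters' processing notes. RMA corrects background, normalizes between arrays by quantiles and summarises each probe set. Versions: not given in the sources used here. Values have no count behind them, so the number of arrays limits the precision.

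Of 35556 probe sets, 21789 had 1 symbol in the platform annotation, 1621 had several and were left out, and 12146 had none. The brightest probe set was kept for each of 19938 genes. The comparison, without a block, used lmFit and eBayes of limma 3.58.1 (R 4.3.3). P-values are two-sided and were adjusted over all genes by Benjamini-Hochberg, and 0.05 was the threshold. The fit was tested on simulated data. Members and lists were chosen with earlier results of these data known. Genes named were the members, their neighbours, the 3 genes per related list with the smallest p, and the 5 genes most like each member that spans at least 1; predicted and Rik genes were passed over in that search. Marker genes are named from fixed lists. Same-numbered replicates are not stated to pair mice. Motifs were chosen after the promoters were seen. Alternatives were a filter on dim genes, trend and robust eBayes, quantile normalization, median centring, other probe set rules, a replicate block and leaving out each array.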

Additional observations from a re-analysis of the deposited data

How the results depend on the processing

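Each result was recomputed under 13 alternatives, of which 6 leave out 1 array. Bst1, Nampt and Entpd1 kept their sign in all 13, and Nt5e in 10. With all 6 arrays the differences lay between −2.64 and −2.60 for Bst1, −0.49 and −0.47 for Nampt, 0.02 and 0.08 for Nt5e, and 0.28 and 0.32 for Entpd1. Leaving out 1 array gave −3.80 to −1.99 for Bst1, −0.62 to −0.36 for Nampt, −0.29 to 0.54 for Nt5e, and 0.01 to 0.65 for Entpd1. Nampt, Nt5e and Entpd1 passed the test under none of the alternatives (limma, lowest adjusted p = 0.114, 0.885 and 0.764). The count of genes called was 0 except without HoxA9wt replicate 3 (1) and without HoxA9AA replicate 2 (48), and none of the 74 related genes was called in any. The cause was not tested. Same-numbered mice did not deviate together (correlations from −0.21 to −0.01); with the replicate block Nampt differed by −0.49 (limma, adjusted p = 0.891) and 0 genes were called. Bst1 in HoxA9AA replicates 1 and 3 lay under the background edge, though above the olfactory receptor medians of 4.88 and 4.80 on those arrays. Folds to values under the edge may be understated.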

Other observations

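Dpp4, Kynu and Ada are named here after their values were seen. Dpp4 (CD26) is a surface peptidase. It measured 10.22, 10.25 and 11.06 in the HoxA9wt mice and 8.34, 11.23 and 7.76 in HoxA9AA replicates 1, 2 and 3. It was low in the same mice as Bst1, and its groups overlapped because HoxA9AA replicate 2 was the highest of all. Kynu, an enzyme that breaks down kynurenine on the path from tryptophan to NAD, measured 6.78, 7.61 and 7.51 and then 5.85, 6.37 and 9.57, so HoxA9AA replicate 3 alone was high. Ada, the gene of adenosine deaminase, was also highest in HoxA9AA replicate 3, at 10.00, with 7.95 to 9.28 in the other 5 mice.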
